A study of Mus musculus with 6 samples.

Results

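The methionine cycle and the choline metabolism joined to it were followed through 10 genes in livers of MASH diet–fed mice: *Mat1a*, *Mat2a*, *Gnmt*, *Ahcy*, *Bhmt*, *Cbs*, *Cth*, *Pemt*, *Sardh* and *Dmgdh*. They were chosen by name from the pathway, with earlier results of these data known, and all 10 were among the 25403 genes listed and among the 14496 tested. The libraries came from 3 livers labelled WT (wild-type C57BL6/J) and 3 labelled *Themis*-KO, a deletion in the whole body that also removes THEMIS from T cells. Mice of both groups received for 3 months, from an age of 10–12 weeks, the AMYLIN liver NASH diet, which drew 40% of its kcal from fat and 20% from fructose and held cholesterol at 2%. No group on chow was among these samples, so that every value describes livers on the MASH diet. The sample labels give neither the sex of the mice nor the background strain of the *Themis*-KO group, and the deleted stretch of *Themis* is not given in the sources used here.

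Methionine is converted in liver to S-adenosylmethionine (SAM), the donor of methyl groups, and SAM that has given up its methyl group becomes S-adenosylhomocysteine and then homocysteine. Homocysteine is either methylated back to methionine, in liver partly with betaine made from choline, or passed on through transsulfuration to cysteine. Hepatocytes of the adult liver make SAM with the enzyme encoded by *Mat1a*, while *Mat2a* encodes the form used in most other tissues, in fetal liver and in proliferating hepatocytes.

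Library totals on genes ran from 20679642 to 25649767 counts. *Themis* counts did not separate the labels. *Themis* stood at 8.07, 25.6 and 12.0 CPM (counts per 1000000 counts of a library scaled by TMM) in the livers labelled WT and at 8.63, 7.74 and 9.97 CPM in those labelled *Themis*-KO (log2 fold change −0.79, SE 0.38, edgeR quasi-likelihood adjusted p = 0.199). Since a count over the whole gene says little about a deletion of unknown extent, each group is named here by its label. WT livers 1 and 2 stood apart from the other 4 in a mitochondrial transcript: *Gm28438* made up 96.6% and 96.8% of its summed counts with *mt-Nd3* in them, against 2.20% to 3.26% in WT liver 3 and the *Themis*-KO livers. Values without these livers are given below. The labelled tissue was borne out by its markers, since 11 tested hepatocyte markers (*Alb*, *Apoa1* and others) took between 61393 and 78601 CPM together in every liver.

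Of the 10 genes, 7 were lower in the livers labelled *Themis*-KO at an adjusted p under 0.05 and 0 were higher (edgeR, Benjamini-Hochberg adjustment over 14496 genes). Of all genes tested, 4.14% were called lower and 4.97% higher, a split of 600 and 721 genes that became 387 and 1449 under scaling to the library total. Among the 1268 genes at or above the level of the lowest of the 10 in WT livers, 16.9% were called lower. For 9 of the 10 genes, all but *Mat2a*, every *Themis*-KO liver lay below every WT liver, and for 0 of the 10 every *Themis*-KO liver lay above. The shares of all genes tested were 16.9% and 17.7%. In bulk tissue, fewer cells of a type and less RNA per cell cannot be told apart. The median log2 fold change of the 10 genes was −0.75, and that of all genes tested was 0.0095. The genes called lower were *Bhmt*, *Gnmt*, *Ahcy*, *Sardh*, *Cth*, *Mat1a* and *Dmgdh*. At an unadjusted p under 0.05, 9 were lower and 0 higher. Such p-values were common over all genes in either direction: *Dld*, at an unadjusted p of 0.0404 (edgeR), stood at rank 4049 of 14496. DESeq2 called 8 of the 10 lower and 0 higher at an adjusted p under 0.05, beside 7.48% of all genes called lower. Summed over the 10 genes, the level was 10973, 10563 and 9245 CPM in the WT livers and 5124, 5346 and 6722 CPM in the *Themis*-KO livers. The groups did not overlap, and the *Themis*-KO mean was 55.9% of the WT mean (exact 2-sided permutation test, p = 0.1, the smallest p that 3 livers against 3 allow).

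**Figure D1:**
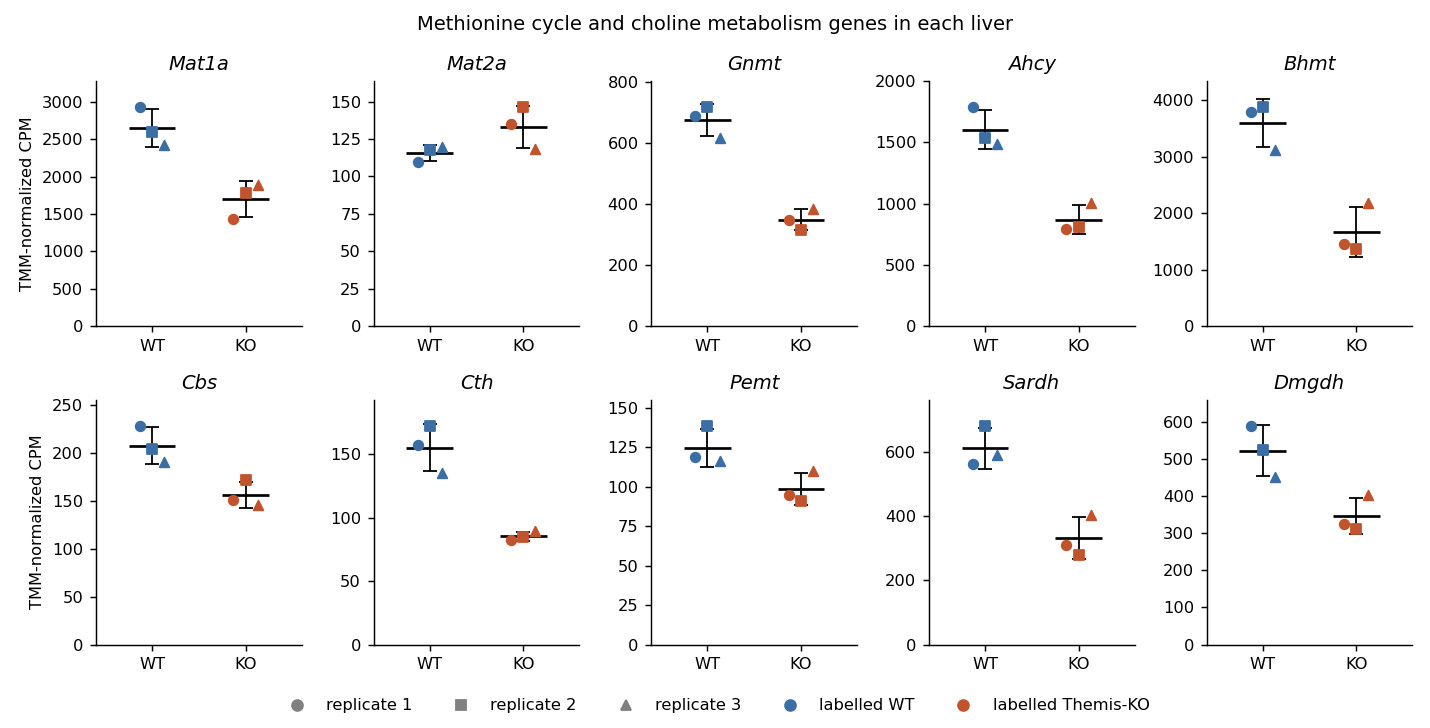
TMM-normalized CPM (y axis, from 0) of each of the 10 genes in 3 WT and 3 *Themis*-KO livers, with 1 point per liver, the marker shape for the replicate number, the mean as a line and the SD as bars. Every *Themis*-KO liver lies below every WT liver for 9 genes, and the groups overlap for *Mat2a*.

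The number called rested on single livers. It was 0 without WT liver 1 and 0 without *Themis*-KO liver 1, 1 without *Themis*-KO liver 2, 2 without WT liver 2, 7 without WT liver 3 and 9 without *Themis*-KO liver 3. The share of all genes called lower moved with it, from 0.0814% without *Themis*-KO liver 1 to 13.8% without *Themis*-KO liver 3. The direction did not turn: in each of these 6 fits the same 9 genes had negative log2 fold changes and *Mat2a* a positive one. At an unadjusted p under 0.05 (edgeR), 8 or 9 of the 10 genes were lower in each of these fits, and 1 was higher without *Themis*-KO liver 3. The share of all genes under that unadjusted threshold was not counted for these or the following fits. With a term for the mitochondrial type, which leaves WT liver 3 as the comparison, 0 of the 10 genes passed (edgeR, 6 lower at an unadjusted p under 0.05) and 0.0207% of all genes were called lower. The log2 fold change was then −0.82 for *Gnmt* and −0.51 for *Mat1a*.

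Scaled to transcript length, the order of the levels in WT livers was *Bhmt* (1446 ± 169 CPM per kb, SD, n = 3), *Mat1a* (825 ± 79.9), *Gnmt* (651 ± 50.7), *Ahcy* (630.5 ± 63.0), *Dmgdh* (175 ± 23.0), *Sardh* (135 ± 13.8), *Pemt* (124 ± 12.2), *Cth* (85.5 ± 10.2), *Cbs* (82.0 ± 7.64) and *Mat2a* (41.3 ± 1.90). In that order *Gnmt* and *Ahcy*, *Sardh* and *Pemt*, and *Cth* and *Cbs* did not differ beyond their spread. In the *Themis*-KO livers *Bhmt* (670 ± 181 CPM per kb) and *Mat1a* (529 ± 73.8) still led without differing beyond their spread, *Mat2a* (47.5 ± 5.05) and *Cth* (47.0 ± 2.04) stood at the same level, and *Pemt* (98.1 ± 10.2) stood above *Sardh* (73.1 ± 14.5).

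**Figure D2:**
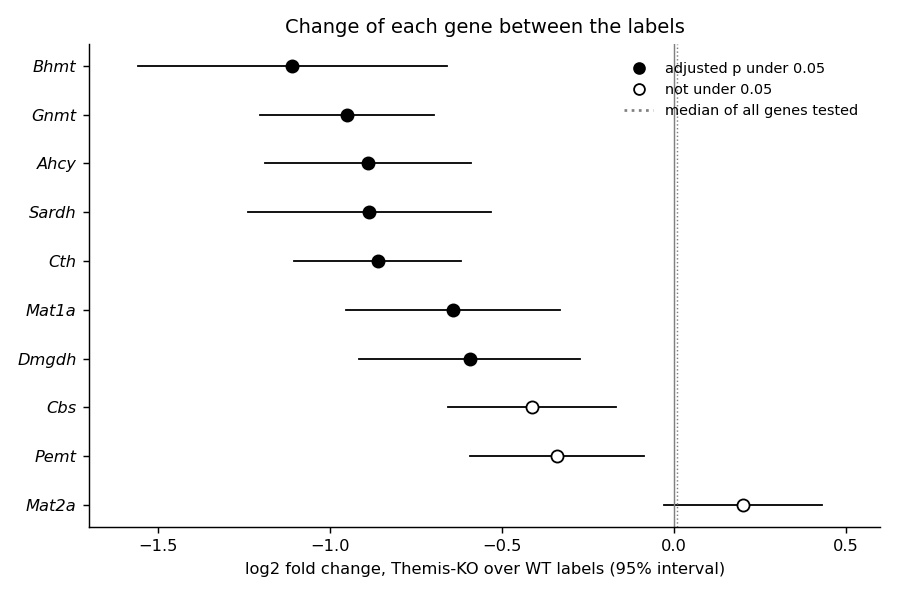
Log2 fold change of each gene between the livers labelled *Themis*-KO and WT (x axis), with the 95% interval as a bar and filled points for an adjusted p under 0.05 (edgeR). The interval lies below 0 for 9 genes, from *Bhmt* at −1.11 to *Pemt* at −0.34, and spans 0 for *Mat2a* at 0.20, and the dotted line marks the median of all genes tested.

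Of the 2 genes that make SAM, only *Mat1a* was called. *Mat1a* (chr14:41105035-41124412, forward strand, GRCm38), which encodes methionine adenosyltransferase of the adult hepatocyte, stood at 2927, 2591 and 2424 CPM in the WT livers and at 1430, 1781 and 1881 CPM in the *Themis*-KO livers. The groups did not overlap, and *Mat1a* fell by 0.64 in log2 units (SE 0.13, adjusted p = 0.0345), to 64.1% of the WT mean. *Mat2a* (chr6:72432799-72439558, reverse strand) stood at 109.7, 118 and 119.7 CPM in the WT livers and at 135, 146 and 118 CPM in the *Themis*-KO livers. *Themis*-KO liver 3 lay among the WT livers, and the log2 fold change of 0.20 (95% interval −0.03 to 0.43) did not pass the test (adjusted p = 0.210). The interval allows a rise of up to 0.43 in log2 units.

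The ratio of the counts within a library does not depend on the scaling between libraries. There were 26.7, 22.0 and 20.3 *Mat1a* counts per *Mat2a* count in the livers labelled WT and 10.6, 12.2 and 15.9 in those labelled *Themis*-KO. The ranges did not meet, with *Themis*-KO liver 3 closest to the WT livers. On the log2 scale the mean ratio was 4.51 ± 0.20 (SD, n = 3) against 3.67 ± 0.30, a difference of −0.84 (exact 2-sided permutation test, p = 0.1, its smallest). Against WT liver 3 alone, without the WT livers of the other mitochondrial type, the difference was −0.67. *Mat1a* remained the more abundant transcript in every liver of both groups.

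The promoter of *Mat2a* is shown because it is the gene that did not fall with the rest, and those of *Gnmt* and *Ahcy* as examples of the genes called lower. *Bhmt*, *Sardh* and *Dmgdh* were also called lower and had windows of the same kind. Each is 250 bases upstream of the start in RefSeq (GRCm38.p6), all 3 on the reverse strand, and the capitals mark matches on either strand. The motifs searched were the TATA box (TATAAA), the CCAAT box (CCAAT), the GC box (GGGCGG), the E-box (CACGTG) and the nuclear receptor core motif (AGGTCA), the last of which was added after the letters had been read. *Mat2a* lies at chr6:72439557-72439806, *Gnmt* at chr17:46729166-46729415 and *Ahcy* at chr2:155074498-155074747.
*Mat2a*: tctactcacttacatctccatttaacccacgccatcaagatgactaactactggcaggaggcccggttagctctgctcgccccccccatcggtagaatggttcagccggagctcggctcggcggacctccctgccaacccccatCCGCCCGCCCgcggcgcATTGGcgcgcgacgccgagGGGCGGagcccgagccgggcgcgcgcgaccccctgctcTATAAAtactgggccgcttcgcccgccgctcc
*Gnmt*: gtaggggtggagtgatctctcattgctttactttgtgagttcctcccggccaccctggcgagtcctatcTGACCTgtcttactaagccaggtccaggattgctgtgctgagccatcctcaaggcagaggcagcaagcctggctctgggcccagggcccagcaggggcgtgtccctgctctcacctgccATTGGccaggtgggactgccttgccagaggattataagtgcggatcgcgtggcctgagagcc
*Ahcy*: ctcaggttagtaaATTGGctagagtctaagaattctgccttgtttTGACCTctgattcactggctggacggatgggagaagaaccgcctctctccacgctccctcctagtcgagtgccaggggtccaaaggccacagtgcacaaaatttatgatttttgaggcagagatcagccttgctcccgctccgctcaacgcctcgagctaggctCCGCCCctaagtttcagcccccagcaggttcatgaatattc

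The *Mat2a* window held 29 CpG dinucleotides and 67.6% G and C, against a median of 6 CpG over 32851 promoter windows, of which 6.78% had as many. It had 1 TATA box, 1 CCAAT box (here on the other strand, as ATTGG) and 3 GC boxes, a pair of which overlap as CCGCCCGCCC. *Gnmt* had 6 CpG, 1 CCAAT box and 1 nuclear receptor core motif (as TGACCT), and *Ahcy* had 9 CpG, 1 CCAAT box, 1 GC box and 1 nuclear receptor core motif. No E-box was found in the 3 windows. Of all windows, 12.4% held the TATA box, 33.8% the CCAAT box, 32.7% the GC box, 6.02% the E-box and 14.0% the nuclear receptor core motif. Among the 8 genes with a window in the table, the others with more CpG than the median were *Cbs* with 21 and *Dmgdh* with 16, and *Pemt* had 2, *Sardh* 3 and *Bhmt* 5. The nuclear receptor core motif was found 3 times in the *Bhmt* window, 1 time in *Sardh* and 0 times in *Mat2a*, *Cbs*, *Pemt* and *Dmgdh*. The *Cbs* window held 1 E-box. A match of letters is a description and not a bound site.

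Of the genes that use SAM, *Gnmt* fell most clearly. *Gnmt* encodes glycine N-methyltransferase, an abundant liver enzyme that turns glycine into sarcosine and so disposes of SAM in excess. Its levels were 689, 716 and 615 CPM in the WT livers and 349, 314 and 383 CPM in the *Themis*-KO livers, well apart. *Gnmt* fell by 0.95 in log2 units (SE 0.11, adjusted p = 0.00936), to 51.8% of the WT mean, and it stood at rank 41 of all genes by p-value. *Pemt* (chr11:59970614-60046489), which encodes the liver enzyme that methylates phosphatidylethanolamine to phosphatidylcholine, stood at 119, 139 and 116 CPM in the WT livers and at 94.5, 90.6 and 109.9 CPM in the *Themis*-KO livers. The groups lay apart by little, with a log2 fold change of −0.34 (SE 0.11) that did not pass the test (adjusted p = 0.0860). The ratio of *Gnmt* to *Pemt* counts was 5.81, 5.17 and 5.29 in the WT livers and 3.69, 3.47 and 3.48 in the *Themis*-KO livers (log2 difference −0.61, exact permutation p = 0.1). This ratio, like those of *Bhmt* and *Dmgdh* below, was chosen after the counts had been seen.

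S-adenosylhomocysteine is split to homocysteine and adenosine by a single enzyme, encoded by *Ahcy*. *Ahcy* (chr2:155059310-155074497, its window printed above) was measured at 1786, 1536 and 1488 CPM in the WT livers and 788, 809 and 1002 CPM in the *Themis*-KO livers. The groups did not overlap, and *Ahcy* fell by 0.89 in log2 units (SE 0.13, adjusted p = 0.0154). *Gm4737*, a copy 99.7% identical to *Ahcy* over 2083 aligned bases, was listed at between 14.5 and 44.7 CPM, so that the split of reads between them is uncertain at that size.

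Remethylation of homocysteine with betaine is carried out by the product of *Bhmt* (chr13:93616675-93637961, reverse strand), the most abundant of the 10 transcripts in the WT livers. *Bhmt* stood at 3805, 3880 and 3116 CPM in the WT livers and at 1461, 1359 and 2185 CPM in the *Themis*-KO livers. It fell by 1.11 in log2 units (SE 0.19, adjusted p = 0.0245), to 46.3% of the WT mean, the largest change among the 10 genes. The groups did not overlap, although *Themis*-KO liver 3 stood well above the other *Themis*-KO livers. *Gm5096*, 99.4% identical to *Bhmt* over 1869 bases, was listed at between 12.7 and 40.9 CPM, and the antisense transcript *Gm15622* at no more than 8.33 CPM.

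Transsulfuration takes homocysteine to cystathionine and then to cysteine. *Cbs*, which encodes cystathionine beta-synthase for the entry step, stood at 228, 205 and 190.1 CPM in the WT livers and at 150.9, 172 and 146 CPM in the *Themis*-KO livers. The groups did not overlap, but the log2 fold change of −0.41 (SE 0.11) lay just outside the threshold at an adjusted p of 0.0506, and it passed with DESeq2 (adjusted p = 0.00795). *Cth*, which encodes cystathionine gamma-lyase for the following step, stood at 157, 173 and 136 CPM in the WT livers and at 82.1, 84.6 and 89.4 CPM in the *Themis*-KO livers. The *Themis*-KO livers were close together, and *Cth* fell by 0.86 in log2 units (SE 0.10, adjusted p = 0.0112), at rank 53 of all genes by p-value. The ratio of *Bhmt* to *Cbs* counts sets 1 gene of remethylation beside 1 of transsulfuration and does not measure the pathways. It was 16.7, 18.96 and 16.4 in the WT livers and 9.68, 7.91 and 15.003 in the *Themis*-KO livers. The groups did not overlap, with a log2 difference of −0.72 (exact permutation p = 0.1).

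Betaine that has given up a methyl group leaves dimethylglycine, which the mitochondrial enzyme encoded by *Dmgdh* turns into sarcosine, and the enzyme encoded by *Sardh* turns sarcosine into glycine. *Dmgdh* stood at 591, 526 and 453 CPM in the WT livers and at 325, 312 and 403 CPM in the *Themis*-KO livers, and fell by 0.59 in log2 units (SE 0.14, adjusted p = 0.0418). *Sardh* stood at 561, 680 and 588 CPM in the WT livers and at 309, 278 and 404 CPM in the *Themis*-KO livers, and fell by 0.89 in log2 units (SE 0.15, adjusted p = 0.0241). Neither gene's groups overlapped, and *Themis*-KO liver 3 was the highest of its group for both. *Gnmt*, which makes sarcosine, and *Sardh* and *Dmgdh*, which act on either side of it, were thus all lower.

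*Bhmt*, its neighbour *Bhmt2* and *Dmgdh* stand in a row on chromosome 13. *Bhmt2*, which encodes a related methyltransferase that uses S-methylmethionine, runs on the reverse strand from a start at 93674302, and *Dmgdh* starts on the forward strand at 93674433. The 130 bases between the starts (chr13:93674303-93674432, GRCm38.p6, written on the strand of *Dmgdh*) are shown because both genes point away from them, with the match to the GC box in capitals.
*Bhmt2* to *Dmgdh*: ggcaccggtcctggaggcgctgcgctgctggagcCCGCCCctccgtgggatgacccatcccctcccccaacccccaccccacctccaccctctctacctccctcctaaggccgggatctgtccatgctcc

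*Bhmt2* stood at 235, 229 and 196 CPM in the WT livers and at 108, 118 and 194 CPM in the *Themis*-KO livers (log2 fold change −0.65, SE 0.21, adjusted p = 0.0896). There were 2.51, 2.298 and 2.315 *Dmgdh* counts per *Bhmt2* count in the WT livers and 3.00, 2.63 and 2.08 in the *Themis*-KO livers, which overlap (log2 difference 0.10, exact permutation p = 0.6). *Bhmt* to *Bhmt2* counts stood at 16.2, 16.9 and 15.9 in the WT livers and at 13.5, 11.5 and 11.3 in the *Themis*-KO livers, without overlap (log2 difference −0.44, exact permutation p = 0.1).

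**Figure D3:**
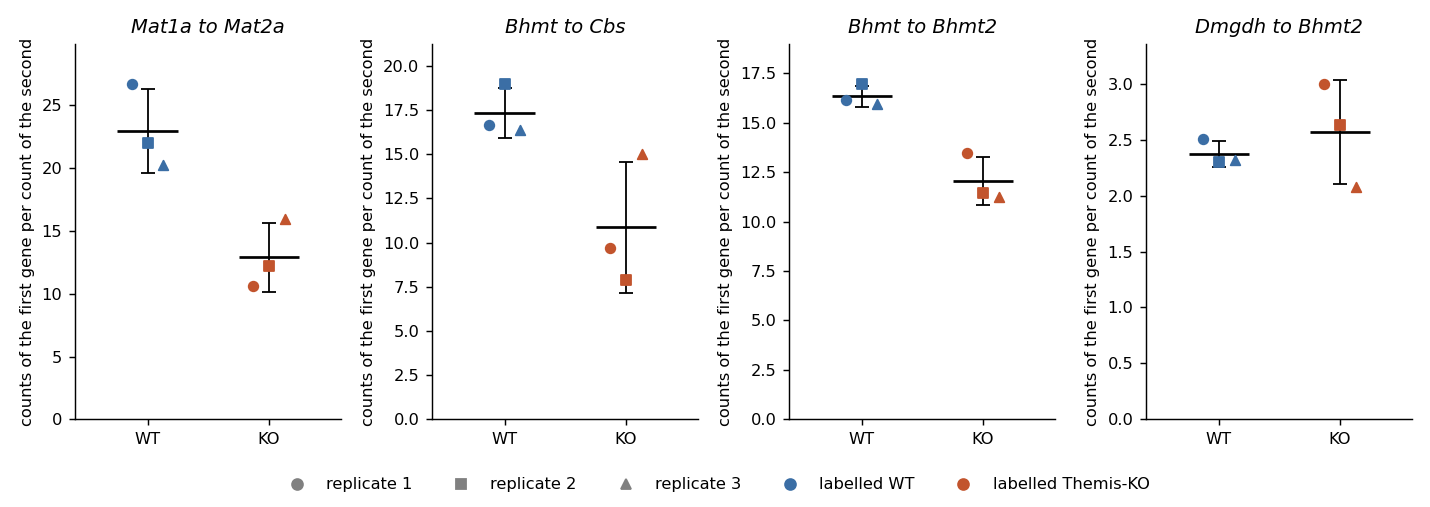
Ratios of the counts of a pair of genes within each library (y axes, counts of the first gene per count of the second, from 0), with 1 point per liver, the mean as a line and the SD as bars. The WT and *Themis*-KO livers lie apart for *Mat1a* to *Mat2a*, *Bhmt* to *Cbs* and *Bhmt* to *Bhmt2*, and overlap for *Dmgdh* to *Bhmt2*.

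Single livers stood high or low for several genes at once. *Themis*-KO liver 3 was above its group mean for 8 of the 10 genes and WT liver 3 for 1 of 10. Averaged over the 9 genes without *Mat2a*, *Themis*-KO liver 3 stood 0.18 above its group mean on the log2 scale, and WT liver 3 stood at −0.13. WT livers 1 and 2 each stood at 0.067. WT liver 3 is the WT liver that shared the mitochondrial type of the *Themis*-KO livers, and a link to that type was not tested. Deviations from the group means (Pearson's r over 6 livers that share the scaling, as a description) correlated unevenly. Among the genes other than *Mat2a* and *Cbs*, r ran from 0.21 between *Mat1a* and *Sardh* to 0.94 between *Pemt* and *Sardh*. *Mat2a* ran from −0.90 with *Bhmt* to 0.28 with *Cbs*, and *Cbs* ran from −0.63 with *Sardh* to 0.48 with *Mat1a*. Over the 6 livers, groups included, the genes most like *Mat1a* were *Rtp3*, *Cisd2* and *Ccnd3* (r = 0.998, 0.996 and 0.996), and those most like *Mat2a* were *2310022A10Rik*, *Zfp330* and *Hey1* (r = 0.998, 0.996 and 0.994). They had the highest r of all tested genes outside the 10, so that values near 1 follow from the search. Only *Rtp3* among them was called (edgeR adjusted p = 0.0383).

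Hepatocyte markers were themselves lower in the livers labelled *Themis*-KO. All 11 tested had negative log2 fold changes, 2 passed the test, and their median was −0.27. Their mean log2 CPM ranged from 11.73 to 11.97 in the WT livers and from 11.46 to 11.60 in the *Themis*-KO livers. Relative to these markers in the same liver, *Bhmt* (−0.87), *Gnmt* (−0.69), *Ahcy* (−0.63), *Cth* (−0.59) and *Mat1a* (−0.38) were still lower on the log2 scale without overlap (exact permutation p = 0.1 each). The share of all genes that separate on this scale, in either direction, was not counted. In CPM, *Mat2a* was not called (log2 fold change 0.20, edgeR adjusted p = 0.210), and *Themis*-KO liver 3 lay among the WT livers. That liver had the lowest marker mean of all livers, at 11.46. Relative to the markers, *Mat2a* was higher by 0.46, with every *Themis*-KO liver above every WT liver (exact permutation p = 0.1). Since the markers were lower in the *Themis*-KO livers, a gene unchanged in CPM also stands higher there on this scale. The value of 0.46 is therefore not by itself a rise of *Mat2a*. *Sardh* (−0.63), *Dmgdh* (−0.33), *Cbs* (−0.15) and *Pemt* (−0.08) overlapped between the groups on this scale (exact permutation p = 0.2, 0.2, 0.2 and 0.6), and the difference of *Pemt* turned to 0.05 without WT liver 2 and to 0.0041 without *Themis*-KO liver 2.

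**Figure D4:**
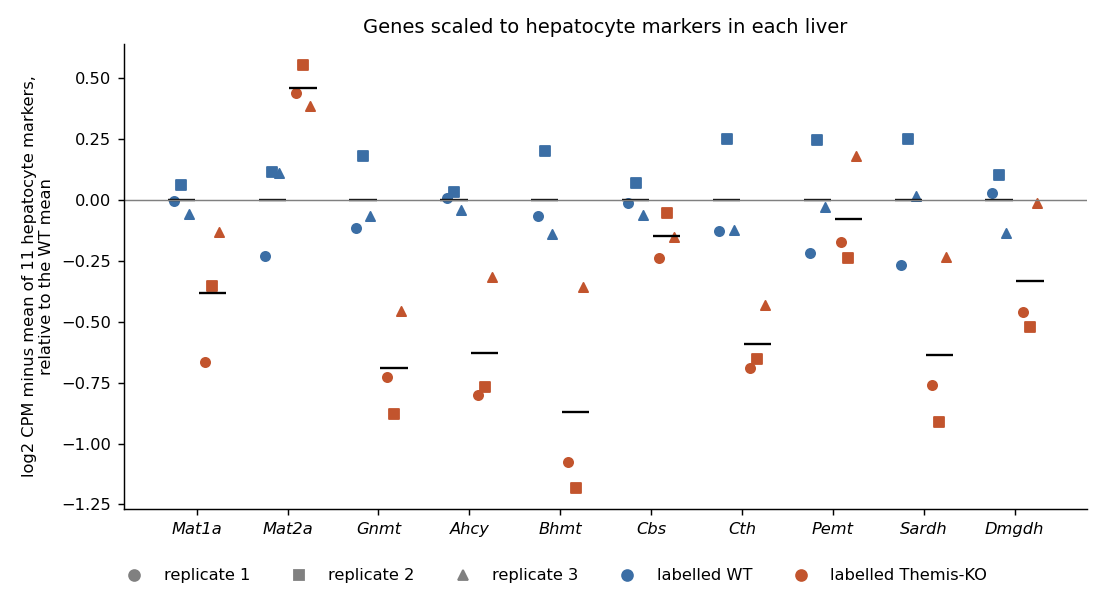
Log2 CPM of each gene minus the mean log2 CPM of 11 hepatocyte markers in the same liver (y axis), set to 0 at the WT mean, with 1 point per liver and the group mean as a line. On this scale *Mat2a* lies higher in every *Themis*-KO liver, and *Bhmt*, *Gnmt*, *Ahcy*, *Cth* and *Mat1a* lie lower. The groups overlap for *Cbs*, *Pemt*, *Sardh* and *Dmgdh*. The markers themselves were lower in the *Themis*-KO livers, so that a gene unchanged in CPM also lies higher there.

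Other cell and zone markers moved as well, and their part in these results was not tested. Of 8 markers of pericentral hepatocytes (*Glul*, *Cyp2e1* and others), 6 were called lower and 0 higher, with a median log2 fold change of −0.92 and a summed level of 8429 to 12734 CPM in the WT livers and 4853 to 6440 CPM in the *Themis*-KO livers. Of 8 periportal markers, 3 were called lower and 0 higher, with a median of −0.39 and 6227 to 6633 against 4298 to 5829 CPM. Stellate cell markers were called higher for 6 of 11 (406 to 458 against 606 to 677 CPM), cholangiocyte markers for 2 of 8 (168 to 208 against 400.3 to 632 CPM), macrophage markers for 3 of 12 (451 to 776 against 772 to 995 CPM), endothelial markers for 1 of 9 (285 to 314 against 314 to 366 CPM) and proliferation markers for 3 of 8 (62.8 to 82.7 against 86.1 to 112 CPM), with 0 called lower in each of these lists. T cell markers held 4.13 to 5.41 CPM in the WT livers and 3.01 to 7.10 CPM in the *Themis*-KO livers, and 1 of 6 was lower. B cell markers, at 2.34 to 5.57 and 1.59 to 4.91 CPM, had 0 of 4 called. No marker in any of these lists was at 0 in every liver. Of 11 listed genes of the fetal and dedifferentiated liver, only 8 were expressed enough to be tested. Of these 8, 4 were called higher and 0 lower: *H19*, *Sox4*, *Hk2* and *Aldoa*, with log2 fold changes of 2.00, 1.34, 1.48 and 0.59. The other 4 tested were not called, and 1 of the 8 had a negative log2 fold change (−0.28).

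Around the 10 genes, 79 of 80 listed pathway genes in 7 lists were tested, of which 11 were called lower and 7 higher, beside 4.14% and 4.97% of all genes. Among the 8 partners of SAM and homocysteine metabolism 1 was lower and 0 higher (median log2 fold change −0.24): *Ahcyl1*, a relative of *Ahcy*, stood at 112, 104 and 110.5 CPM in the WT livers and at 83.2, 85.6 and 91.4 CPM in the *Themis*-KO livers, and fell by 0.33 on the log2 scale (adjusted p = 0.0443). *Bhmt2*, above, did not pass.

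Folate enzymes went both ways. Of 14 tested, 2 were lower and 2 higher (median −0.38). *Aldh1l1*, which encodes 10-formyltetrahydrofolate dehydrogenase, fell by 0.76 (adjusted p = 0.0328) and *Mthfd1*, the cytosolic trifunctional folate enzyme, fell by 0.66 on the log2 scale (adjusted p = 0.0377). *Mthfd2*, its mitochondrial counterpart of growing cells, stood at 2.39, 2.02 and 2.49 CPM in the WT livers and at 5.06, 5.76 and 4.06 CPM in the *Themis*-KO livers, a log2 fold change of 1.11 (adjusted p = 0.0246). *Ggh*, which encodes the hydrolase of folate polyglutamates, rose by 0.57 (adjusted p = 0.0241).

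In choline and phosphatidylcholine metabolism, 1 of 14 tested genes was lower and 0 higher (median −0.10). *Gpcpd1*, which encodes a phosphodiesterase that frees glycerol 3-phosphate and choline from glycerophosphocholine, stood at 192, 188 and 130.1 CPM in the WT livers and at 56.3, 70.5 and 96.2 CPM in the *Themis*-KO livers, and fell by 1.19 on the log2 scale (adjusted p = 0.0266). *Chka*, which encodes choline kinase alpha, stood at 29.5, 17.8 and 25.5 CPM in the WT livers and at 144, 97.1 and 24.1 CPM in the *Themis*-KO livers. *Chka* was high in *Themis*-KO livers 1 and 2 only, *Themis*-KO liver 3 lay among the WT livers, and the log2 fold change of 1.87 did not pass the test (adjusted p = 0.0699).

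Glycine and sarcosine genes were lower for 4 of 8 tested and higher for 0 (median −0.37). *Pipox*, which encodes a peroxisomal sarcosine oxidase, stood at 201, 209 and 185 CPM in the WT livers and at 121, 114 and 136 CPM in the *Themis*-KO livers, and fell by 0.68 (adjusted p = 0.0147). *Agxt*, which encodes the aminotransferase that forms glycine from glyoxylate, fell by 1.13, *Gcat* by 0.70 and *Amt*, of the glycine cleavage system, by 0.43 on the log2 scale (adjusted p = 0.0258, 0.0245 and 0.0456).

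Downstream of *Cth*, 3 of 12 tested genes of cysteine, taurine and glutathione metabolism were lower and 1 higher (median −0.01). *Mpst*, which encodes mercaptopyruvate sulfurtransferase, fell by 0.70, *Tst*, which encodes thiosulfate sulfurtransferase, by 0.61 and *Suox*, which encodes sulfite oxidase, by 0.52 on the log2 scale (adjusted p = 0.0270, 0.0407 and 0.0420). *Gss*, which encodes glutathione synthetase, rose from 85.4, 117 and 102 CPM in the WT livers to 174, 157 and 141 CPM in the *Themis*-KO livers (log2 fold change 0.63, adjusted p = 0.0345). Among 11 other SAM-dependent methyltransferases 0 were lower and 2 higher (median −0.16). These were *Dnmt1*, the maintenance DNA methyltransferase (0.42, adjusted p = 0.0481), and *Prmt1*, a protein arginine methyltransferase (0.47, adjusted p = 0.0418). Log2 fold changes were negative for 8 of the 11, the lowest −1.25, without being called. Their summed level was 1651 to 2026 CPM in the WT livers and 1335 to 1574 CPM in the *Themis*-KO livers. Of 12 genes of polyamine metabolism and methionine salvage 0 were lower and 2 higher (median 0.14). *Sat1* and *Smox*, which act in polyamine catabolism, had log2 fold changes of 1.16 and 1.18 (adjusted p = 0.0471 and 0.0482), and *Themis*-KO liver 3, at 85.3 and 8.83 CPM, stood close above the highest WT livers, at 77.3 and 7.89 CPM.

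**Figure D5:**
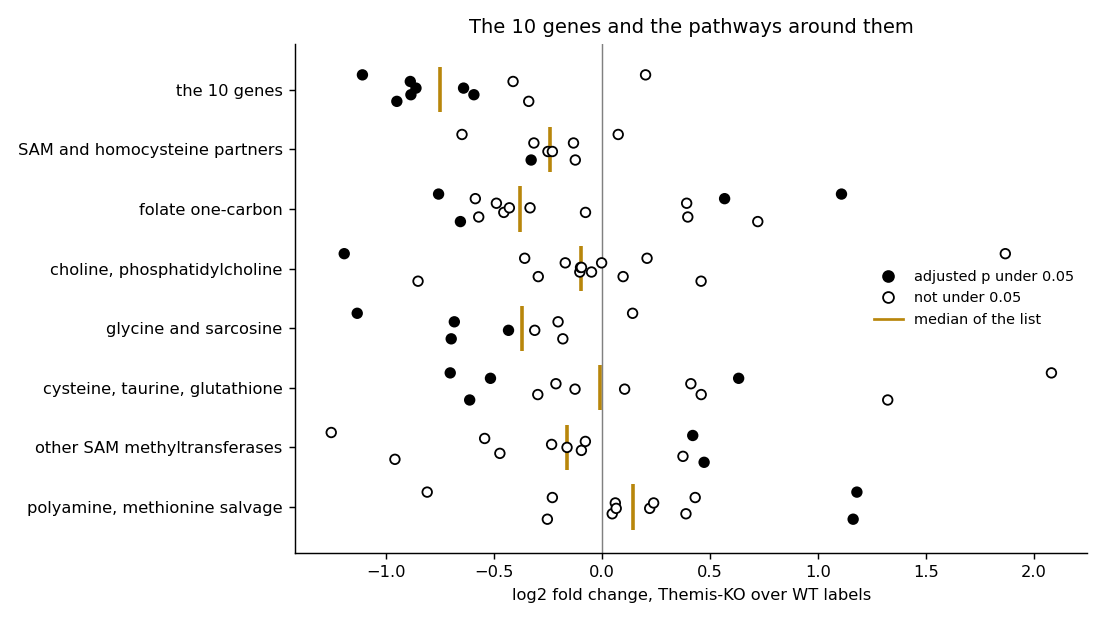
Log2 fold change (x axis) of every tested gene of the 10 and of 7 pathway lists, livers labelled *Themis*-KO over WT, with 1 point per gene, filled for an adjusted p under 0.05 (edgeR), and the list median as a line. The medians run from −0.75 for the 10 genes to 0.14 for polyamine metabolism and methionine salvage.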

How the data were processed

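Liver poly(A) RNA of 3 mice labelled WT and 3 labelled *Themis*-KO was sequenced, and groups and replicate numbers were taken from the sample labels. According to the submitters' processing notes, reads were trimmed with cutadapt 2.3, mapped to GRCm38 with STAR 2.7.8a and assigned to genes with RSEM 1.3.3. The authors deposited an RSEM estimated count per gene and liver, not normalized and already whole numbers. The annotation release and strand setting are not given in the sources used here, so a gene and its antisense partner may not be separated.

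The quasi-likelihood test of edgeR 4.0.16 in R 4.3.3 was run after filterByExpr and TMM scaling, with the label as the only term. Benjamini-Hochberg adjustment ran over the 14496 genes kept of 25403, with a threshold of 0.05, and p-values measure only the spread between these livers. SEs came from the fold change and its F statistic. Ratios and marker-relative levels (log2 CPM, prior count 2) were compared by exact 2-sided permutation tests, whose smallest p is 0.1. Libraries differed beyond sampling noise (lowest chi-square per degree of freedom 9.12). Alternatives were DESeq2 1.42.0, other scalings and filters, a replicate block, the mitochondrial type and leaving out each liver. Coordinates, lengths and near-identical copies (at least 95% identity over 150 bases) came from GENCODE vM21.

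Named were the 10 genes, *Themis*, the genes of each pathway list at an adjusted p under 0.05 (where fewer than 2 passed, the 2 with the largest change) and the 3 genes most like *Mat1a* and *Mat2a*. The members, lists and rules were chosen with earlier results of these data known. Marker genes of the fetal list were named after their values were seen.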

Additional observations from a re-analysis of the deposited data

How the results depend on the processing

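Across 14 alternatives, *Mat2a* had a positive and the other 9 genes a negative log2 fold change. Of the 10 genes, 7 were called lower with total counts alone, 8 each with DESeq2, RLE size factors, upper quartile scaling, a stricter filter of 10 counts in every liver and no filter, and *Cbs* was the gene near the threshold. Of all genes, 2.67% were called lower with total counts alone and 7.48% with DESeq2, and the share in the others of these fits lay between. Total counts alone moved the median of all genes to 0.15, that of the 10 genes to −0.61 and *Mat2a* to 0.34. With mitochondrial type as a term, 0 of the 10, 3 genes lower and 0 higher over all genes, and 0 lower and 0 higher in the pathway lists passed, from 600, 721, 11 and 7 in the fit given above. Genes called lower and higher numbered 1084 and 1273 with DESeq2, 967 and 1212 with no filter, and 387 and 1449 with total counts alone. Pathway genes called lower numbered 22 with DESeq2 and 22 with no filter, and those called higher 11 with total counts alone. The cause of these shifts was not tested.

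Leaving out each liver in turn gave between 0 and 9 of the 10 genes called lower, 12 to 2039 genes lower and 8 to 2228 higher over all genes, and 0 to 29 pathway genes lower and 0 to 15 higher. The *Mat1a* to *Mat2a* log2 difference stayed between −1.01 and −0.71. *Pemt* relative to hepatocyte markers lay between −0.21 (without *Themis*-KO liver 3) and 0.047, and turned positive without WT liver 2 (0.047) and without *Themis*-KO liver 2 (0.0041).

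The replicate numbers did not pair the livers: deviations of same-numbered livers correlated at −0.35 to 0.014, and 0 of 6 livers correlated best with their own number. With the replicate number as a block, 0 of the 10 genes were called lower (edgeR, 9 lower at an unadjusted p under 0.05, lowest adjusted p = 0.0580), with 45 genes lower and 17 higher over all genes (0.310% lower) and 1 pathway gene lower and 0 higher. The *Mat1a* to *Mat2a* difference under the block was −0.84 (exact p = 0.25, the smallest for 3 pairs).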
